A study of Homo sapiens with 12 samples.

Results

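The genes NOX4, SOD1, SOD2, SOD3, CAT, GPX1, GPX3, NQO1, TXNRD1 and HMOX1, which encode 1 enzyme that makes reactive oxygen species and 9 that remove them or limit their damage, were followed in WI-38 cells treated with TGF-β. They are 10 of the 25702 genes of the count table. They were chosen by name with earlier results of these data known, so the fold changes and calls given for them describe this set of genes and are not independent evidence that such genes respond. WI-38 is an established line of normal human lung fibroblasts. In D1, confluent flasks received fresh medium without TGF-β and RNA was taken 1 day later (passages 2 to 3). In D1+ TGF-β, the flasks received 2 ng/mL TGF-β for 1 day at the same passages. D20 and D20+ TGF-β are flasks kept for 20 days without or with 2 ng/mL TGF-β (passages 5 to 6). All D20 flasks were seeded from 1 untreated flask and all D20+ TGF-β flasks from 1 treated flask, so that at day 20 the effect of TGF-β and that of the source flask cannot be told apart, and neither can time and passage. RNA of 3 of the 5 flasks of each condition was sequenced (n = 3 flasks per condition), and p-values therefore measure only the spread between these flasks.

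The 12 libraries held between 8674488 and 18286197 counts. Over all genes, 2 libraries stood apart from the others of their condition. The chi-square per degree of freedom of D1 replicate 2 against the other D1 flasks was 36.1 and 33.8, and that between those was 12.9, while D20+ TGF-β replicate 3 gave 26.5 and 19.0 against 5.28 between replicates 1 and 2. In D1+ TGF-β and D20 it was 1.78 to 4.49. Levels are given as cpm, counts scaled to the size of each library with TMM factors. Of 8 fibroblast marker genes, COL1A1 averaged 3036 to 7323 cpm and VIM 6412 to 7130 cpm over the conditions. The lowest was S100A4, at 18.0 to 52.1 cpm. Of the 8 epithelial genes 6 or 7, and of the 8 leukocyte and blood genes 6 or 7, stayed under 1 cpm in every library of a condition. The highest of these lists were KRT19 (epithelial, means of 8.03 to 19.8 cpm) and CD68 (leukocyte, means of 39.7 to 55.8 cpm). Summed over 6 myofibroblast genes, ACTA2 and TAGLN among them, the level was 2570 to 3333 cpm in D1, 6361 to 7344 in D1+ TGF-β, 3917 to 4055 in D20 and 3332 to 3757 in D20+ TGF-β, so that it was highest where NOX4 was and was not raised in D20+ TGF-β over D20. Of these genes, ACTA2 and TAGLN averaged slightly more in D20+ TGF-β (309 and 1126 cpm) than in D20 (282 and 1081 cpm). The means of MYL9, CALD1, TPM1 and CNN1 were lower in D20+ TGF-β than in D20, with MYL9 at 532 against 877 cpm. The part of the 6 myofibroblast genes in the NOX4 result was not tested. Summed over 10 genes of cell division, the level was 926 to 1374 cpm in D1, 1041 to 1106 in D1+ TGF-β, 155 to 199.5 in D20 and 330 to 557 in D20+ TGF-β. All 10 of these genes were lower in D20 than in D1, and 9 of 10 were higher in D20+ TGF-β than in D20. Their part in the differences between D1 and D20 described below was not tested. In bulk RNA, fewer cells that express a gene and less RNA per cell cannot be told apart.

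NADPH oxidases move electrons from NADPH to oxygen. NOX4 makes mainly hydrogen peroxide, needs the partner protein p22phox (CYBA), and is known as a gene that TGF-β induces in lung fibroblasts. Superoxide dismutases turn superoxide into hydrogen peroxide in the cytosol (SOD1), the mitochondria (SOD2) or outside the cell (SOD3), and catalase (CAT) and the glutathione peroxidases GPX1 (inside cells) and GPX3 (secreted) remove the peroxide. NQO1, TXNRD1 and HMOX1 are textbook targets of NRF2 (NFE2L2), a transcription factor that KEAP1 holds down and that binds the antioxidant response element.

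Promoter sequences were read to show what lies before the genes whose fall was largest or which are NRF2 targets. The 250 bases before annotated starts were available from RefSeq for 8 of the 10 genes and were placed on GRCh37 by exact match. They were missing for SOD1 and HMOX1, so that of the NRF2 targets among the 10 genes only NQO1 and TXNRD1 were searched. On both strands 3 motifs were searched, the core of the antioxidant response element (TGACNNNGC), the AP-1 site (TGANTCA) and the NF-κB consensus. They occurred in 10.9%, 6.57% and 6.88% of the 35116 windows of that length in the RefSeq table. SOD2, NOX4 and TXNRD1 had more than 1 window, so that more windows than genes were searched, while the shares above are per window. Among the 8 genes only TXNRD1 held a match, to the antioxidant response element core, in each of its 2 windows. The second window lies wholly in exon sequence. The first window lies outside any exon (chr12:104609307-104609556, + strand) and is shown with the match, which begins 99 bases before the start, in capitals. The windows of GPX3 (chr5:150399902-150400151, + strand, next to the gene) and SOD3 (chr4:24796945-24797194, + strand, outside exons but inside the annotated gene) are shown beside it because these were the antioxidant genes with the largest falls under TGF-β, and they held none of the 3 motifs.
TXNRD1: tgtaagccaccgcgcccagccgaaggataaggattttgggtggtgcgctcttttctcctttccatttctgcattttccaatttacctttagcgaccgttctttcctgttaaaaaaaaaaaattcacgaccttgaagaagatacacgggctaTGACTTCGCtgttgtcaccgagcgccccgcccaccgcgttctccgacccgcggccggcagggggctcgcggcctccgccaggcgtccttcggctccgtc
GPX3: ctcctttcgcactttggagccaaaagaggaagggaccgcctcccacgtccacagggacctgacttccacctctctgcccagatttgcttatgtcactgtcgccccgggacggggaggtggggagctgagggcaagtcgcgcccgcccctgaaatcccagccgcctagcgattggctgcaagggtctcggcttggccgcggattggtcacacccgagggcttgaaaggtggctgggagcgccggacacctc
SOD3: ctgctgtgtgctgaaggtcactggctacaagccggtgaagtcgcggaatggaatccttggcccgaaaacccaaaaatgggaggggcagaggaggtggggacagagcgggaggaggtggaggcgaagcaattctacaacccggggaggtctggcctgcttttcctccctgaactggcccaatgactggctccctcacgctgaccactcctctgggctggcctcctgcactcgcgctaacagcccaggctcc
A match is a run of letters and not a measured binding site, and no match says only that these letters are not in this window.

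**Figure D1:**
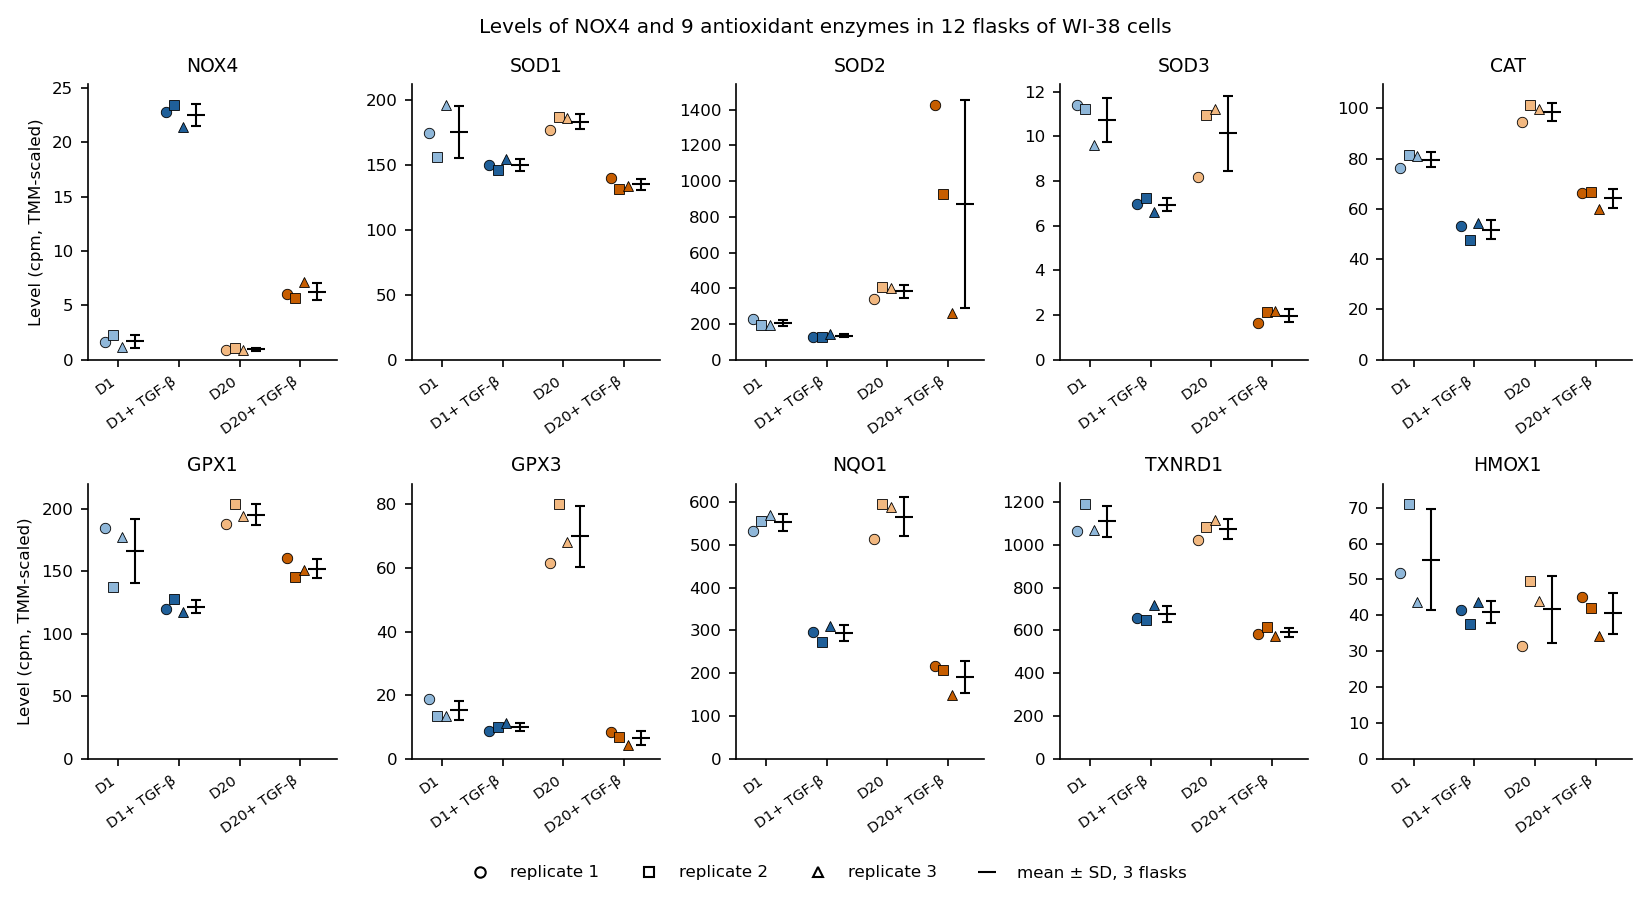
Levels of the 10 genes in each flask (y axis, cpm after TMM scaling, from 0; x axis, condition; symbols, replicates; bars, mean ± SD of 3 flasks). NOX4 was highest in D1+ TGF-β, GPX3 stood out in D20, and the 3 flasks of SOD2 in D20+ TGF-β spread from 263 to 1426 cpm.

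NOX4 (chr11:89057521-89231355 in GRCh37, - strand) was close to the detection limit without TGF-β and rose with TGF-β at both times. The 3 flasks held 1.604, 2.29 and 1.17 cpm in D1 and 22.8, 23.5 and 21.4 cpm in D1+ TGF-β. They held 0.858, 1.12 and 0.902 cpm in D20 (9 to 15 counts) and 6.01, 5.65 and 7.14 cpm in D20+ TGF-β. Every treated flask was above every untreated one, and the D1+ TGF-β flasks were above all others. The log2 fold change was 3.71 ± 0.18 (SE) in D1+ TGF-β vs D1 (adjusted p = 9.34e-09, edgeR's quasi-likelihood test) and 2.70 ± 0.22 in D20+ TGF-β vs D20 (adjusted p = 4.03e-07). Among the treated flasks it fell by 1.88 ± 0.15 on the log2 scale between day 1 and day 20 (adjusted p = 1.07e-06). Without TGF-β NOX4 changed between D1 and D20 by -0.86 ± 0.26 (adjusted p = 0.0147), which did not pass the threshold of 0.01 used throughout but did without D1 replicate 3 (-1.06, adjusted p = 0.00424). The response at D20 was smaller than at D1 by -1.02 ± 0.31 (adjusted p = 0.0381), past the threshold only without D1 replicate 2 (-1.33, adjusted p = 0.00544) or with lanes taken as samples. NOX4 and SOD3 were below the filter of 10 cpm in 6 libraries and were tested in a wider set of 13568 genes with at least 1 cpm in 3 libraries.

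With TGF-β, NOX4 was the one NADPH oxidase catalytic subunit with a clear level in these cells. In D20 it averaged 0.960 cpm, below DUOX1 at 1.26 cpm. Of the others, NOX3 had no count in any of the 12 libraries, and the highest level in any library was 0.752 cpm for NOX1, 0.116 for CYBB, 0.298 for NOX5, 1.33 for DUOX1 and 0.112 for DUOX2. CYBA, the partner of NOX4, moved the other way. It fell by 0.40 ± 0.09 on the log2 scale in D1+ TGF-β vs D1 (40.8 ± 3.80 to 30.9 ± 1.74 cpm, mean ± SD, adjusted p = 0.00776) and by 0.97 ± 0.09 in D20+ TGF-β vs D20 (52.5 ± 1.80 to 26.6 ± 2.95 cpm, adjusted p = 3.62e-06). The first of these calls was lost in several alternatives, for example without D1 replicate 1 (-0.32, adjusted p = 0.032). The genes whose levels over the 12 libraries were most like those of NOX4, by the root mean square difference of log2 cpm centred on each gene's mean among the 13568 genes, were AMIGO2 (0.32), INHBE (0.53), FZD8 (0.57), TSPAN13 (0.60) and CDH2 (0.60). CDH2, which encodes N-cadherin, averaged 34.6 cpm in D1, 174 in D1+ TGF-β, 23.3 in D20 and 91.1 in D20+ TGF-β.

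**Figure D2:**
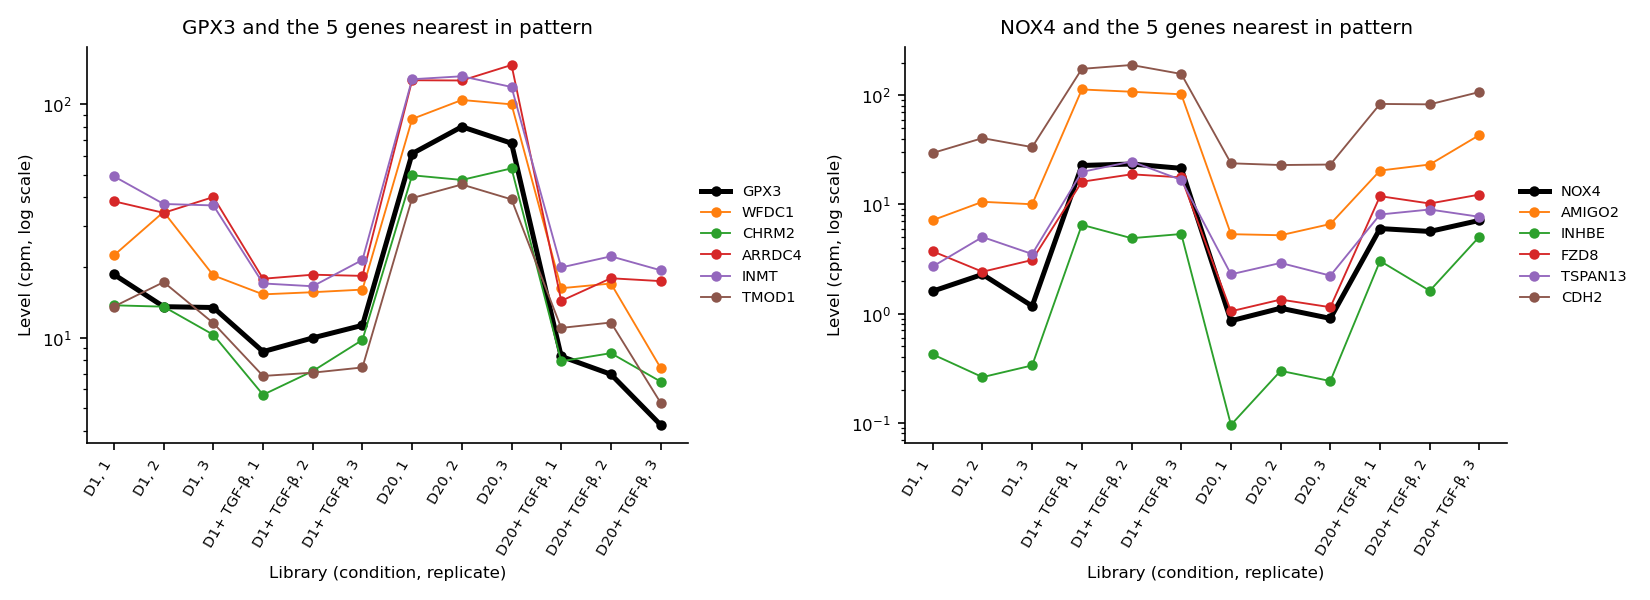
Levels of GPX3 and NOX4 (thick black lines) and of the 5 genes nearest to each in pattern, in the 12 libraries (x axis, condition and replicate; y axis, cpm on a log scale; lines only join the points of a gene). The GPX3 group is highest in the 3 D20 libraries and the NOX4 group in the 3 D1+ TGF-β libraries, except that INHBE in D20+ TGF-β replicate 3 (5.07 cpm) was above D1+ TGF-β replicate 2 (4.90 cpm). The 5 genes of each group were picked by their levels in the same 12 libraries, so that a like pattern was largely given by the choice.

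SOD3 (chr4:24791534-24802464, + strand), the extracellular superoxide dismutase, was lower with TGF-β, and more so at day 20. Its flasks held 11.4, 11.2 and 9.62 cpm in D1 and 6.97, 7.24 and 6.64 cpm in D1+ TGF-β. They held 8.20, 10.96 and 11.3 cpm in D20 and 1.63, 2.12 and 2.16 cpm (21 to 29 counts) in D20+ TGF-β. The treated and untreated flasks did not overlap at either time, and the D20+ TGF-β flasks were below all others. SOD3 had a log2 fold change of -0.62 ± 0.15 at D1 (adjusted p = 0.00843) and -2.39 ± 0.17 at D20 (adjusted p = 1.54e-07). The D1 call was close to the threshold and was lost in 10 of 22 alternatives, with adjusted p up to 0.0325 when D1+ TGF-β replicate 2 was left out. Among the treated flasks SOD3 fell by 1.88 ± 0.18 on the log2 scale between the days (adjusted p = 4.24e-06), and differed by -0.10 ± 0.14 between D20 and D1 (adjusted p = 0.565).

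SOD1 (chr21:33031979-33041244, + strand), the cytosolic enzyme, ranged from 156 to 196 cpm in D1, 146 to 155 in D1+ TGF-β, 177 to 187 in D20 and 132 to 139.8 in D20+ TGF-β. It fell by 0.44 ± 0.08 on the log2 scale in D20+ TGF-β vs D20 (adjusted p = 5.78e-04). At D1 the log2 fold change was -0.23 ± 0.08 (adjusted p = 0.051), which passed the threshold without D1 replicate 2 (-0.30, adjusted p = 0.00438).

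SOD2 (chr6:160090101-160183561, - strand), the mitochondrial enzyme, was the member on which flasks of 1 condition disagreed most. Its flasks held 228, 196 and 194 cpm in D1, 129, 128 and 145 cpm in D1+ TGF-β and 341, 409 and 399.7 cpm in D20. In D20+ TGF-β they held 1426, 927 and 263 cpm. Replicates 1 and 2 of D20+ TGF-β were above every other library, while replicate 3 was below the D20 flasks and above the D1 flasks. The 4 lanes of each of these libraries lay close together, at 1417 to 1459, 909 to 958 and 262 to 272 cpm of the unscaled library total, so that the spread lies between flasks or libraries and not between lanes. D20+ TGF-β vs D20 gave a log2 fold change of 1.19 ± 0.38 (adjusted p = 0.0224), and the flasks overlapped. Without D20+ TGF-β replicate 3 it was 1.62 ± 0.14 (adjusted p = 1.50e-06), and without D20+ TGF-β replicate 1 it was 0.65 ± 0.33 (adjusted p = 0.154), so that leaving out 1 library changed the call. With all libraries and no gene filter it also passed (1.20 ± 0.28, adjusted p = 0.00175).

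The spread of SOD2 in D20+ TGF-β also sets its error in the other comparisons, since 1 dispersion per gene is shared by all libraries. D1+ TGF-β vs D1 gave -0.62 ± 0.38 (adjusted p = 0.258) although the flasks did not overlap, and -0.60 ± 0.10 (adjusted p = 0.00169) in a fit of the 6 D1 libraries alone. D20 vs D1 gave 0.90 ± 0.38 (adjusted p = 0.0634) and, with the 6 untreated libraries alone, 0.87 ± 0.10 (adjusted p = 1.07e-04). The rise between days 1 and 20 among the treated flasks, 2.71 ± 0.40 (adjusted p = 1.19e-04), passed the threshold in all 23 alternatives, with values from 2.16 to 3.14. The difference of the TGF-β responses, D20 minus D1, was 1.81 ± 0.54 (adjusted p = 0.0296) and 2.24 ± 0.20 without D20+ TGF-β replicate 3 (adjusted p = 5.88e-06). With no gene filter it was 1.84 ± 0.40 (adjusted p = 0.00213).

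SOD2 overlaps WTAP and ACAT2 on the opposite strand in the GENCODE annotation, and whether the counting used strand is not given in the sources used here, so that their reads may not be fully separated. In the 3 D20+ TGF-β flasks WTAP, which encodes a subunit of the RNA methylation complex, held 213, 148 and 94.7 cpm, in the same order as SOD2. ACAT2, which encodes an acetyl-CoA acetyltransferase, held 84.9, 88.9 and 118 cpm, in the opposite order. The genes nearest to SOD2 in pattern, named here after their values were seen, were picked by their levels in the same 12 libraries. A like order of the D20+ TGF-β flasks was thus largely given by the choice. The part of the overlap with WTAP and ACAT2 in the spread of SOD2 was not tested. Nearest among the 9490 genes tested was NAMPT (root mean square difference 0.30), which encodes an enzyme of NAD synthesis, with 418, 327 and 87.9 cpm in the D20+ TGF-β flasks. SLC7A2 (0.40), a transporter of cationic amino acids, held 157, 118 and 50.7 cpm there. PLD1 (0.45), FAM43A (0.45) and SLC18B1 (0.45) followed, each lowest of the 3 flasks in replicate 3.

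**Figure D3:**
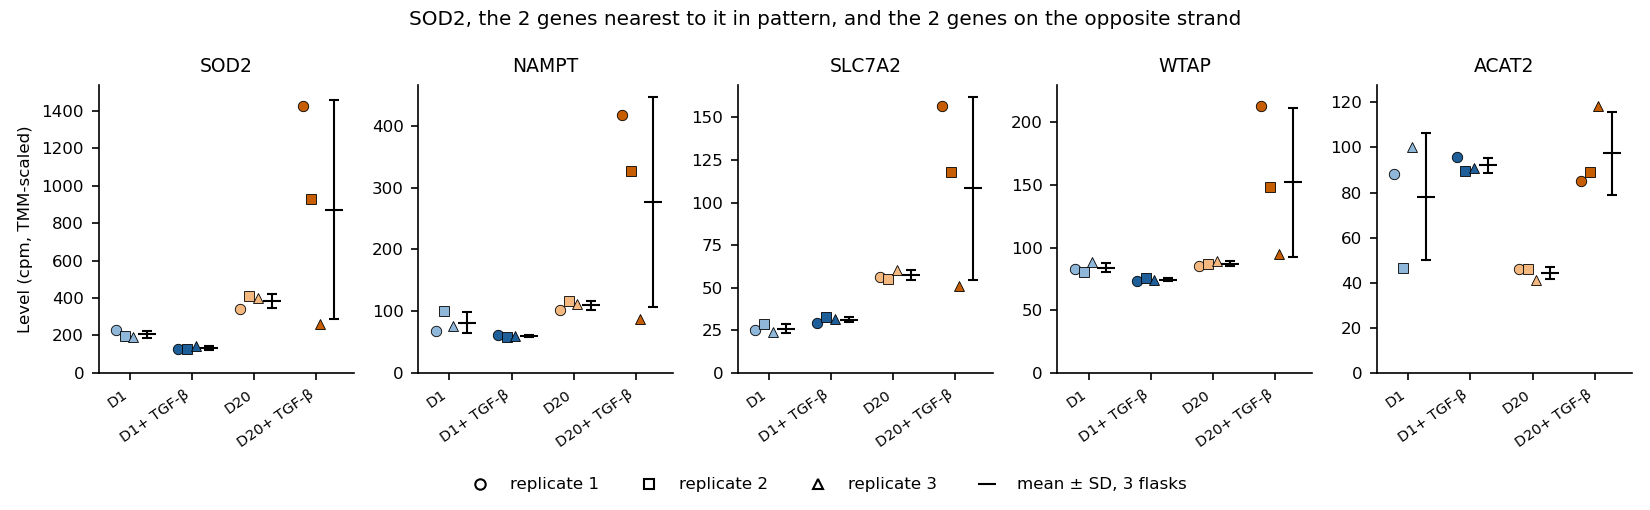
Levels of SOD2, of NAMPT and SLC7A2, and of WTAP and ACAT2 in each flask (y axis, cpm from 0; x axis, condition; symbols, replicates; bars, mean ± SD of 3 flasks). In D20+ TGF-β, replicate 3 was the lowest of the 3 flasks for SOD2, NAMPT, SLC7A2 and WTAP and the highest for ACAT2.

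GPX3 (chr5:150400152-150408549, + strand), the secreted glutathione peroxidase, showed the largest change of the antioxidant genes. Its flasks held 18.7, 13.6 and 13.5 cpm in D1, 8.71, 9.98 and 11.3 cpm in D1+ TGF-β, 61.5, 80.2 and 68.1 cpm in D20 and 8.31, 6.97 and 4.23 cpm in D20+ TGF-β. The D20 flasks were above all others, and the D20+ TGF-β flasks were below all flasks of D1, D1+ TGF-β and D20. Without TGF-β the level rose by 2.20 ± 0.17 on the log2 scale from D1 to D20 (adjusted p = 4.64e-07). In D20+ TGF-β vs D20 it fell by 3.39 ± 0.19 (adjusted p = 3.46e-08). In D1+ TGF-β vs D1 the log2 fold change was -0.60 ± 0.20 (adjusted p = 0.0407), and between the treated conditions it was -0.58 ± 0.22 (adjusted p = 0.0401), both short of the threshold. The difference of the 2 responses was -2.79 ± 0.28 (adjusted p = 2.85e-05). The lowest flask was D20+ TGF-β replicate 3, and without it the log2 fold change at D20 was -3.17 and the difference of responses was -2.57.

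The genes nearest to GPX3 among the 9490 tested were WFDC1 (root mean square difference 0.33), CHRM2 (0.36), ARRDC4 (0.37), INMT (0.41) and TMOD1 (0.50). INMT, which encodes an indole N-methyltransferase, averaged 41.1 cpm in D1, 18.4 in D1+ TGF-β, 126 in D20 and 20.6 in D20+ TGF-β. SELENOP, which like GPX3 encodes a secreted selenoprotein, was named after its values were seen. It held 7.34, 5.82 and 7.10 cpm in D20 and no more than 0.979 cpm in any library of the other conditions, where 2 to 15 counts allow no reliable fold. The summed level of 6 endothelial marker genes was also highest in D20, at 219 to 247 cpm against 45.5 to 79.0 in D1, 34.4 to 40.2 in D1+ TGF-β and 76.8 to 149.7 in D20+ TGF-β. Nearly all of it came from TEK (mean 234 cpm in D20), while CDH5 had no count in any library and PECAM1, KDR and CLDN5 were under 1 cpm in every library. The part of this list in the GPX3 result was not tested.

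CAT (chr11:34460481-34493607, + strand) was lower with TGF-β by about the same amount at both times. Its flasks held 76.2, 81.4 and 81.0 cpm in D1, 53.2, 47.6 and 54.5 in D1+ TGF-β, 94.7, 101 and 99.7 in D20 and 66.1, 66.6 and 59.9 in D20+ TGF-β. CAT had a log2 fold change of -0.63 ± 0.07 at D1 (adjusted p = 4.07e-05) and -0.62 ± 0.07 at D20 (adjusted p = 1.62e-05), and the difference of the responses was 0.01 ± 0.10 (adjusted p = 0.968). CAT was also called higher at day 20 than at day 1, by 0.31 ± 0.07 without TGF-β (adjusted p = 0.00241) and 0.32 ± 0.07 with it (adjusted p = 0.0028). The first of these calls was lost without D20 replicate 2 or 3 (0.29 and 0.30, adjusted p = 0.0135 and 0.0123), and the second without D1+ TGF-β replicate 2 (0.26, adjusted p = 0.0218) or D20+ TGF-β replicate 1 or 2 (0.30 and 0.29, adjusted p = 0.013 and 0.0147). With all flasks of the comparison kept, the first was also lost in edgeR without a composition factor (adjusted p = 0.012), without a gene filter (0.0317) and with the 6 libraries alone (0.0135). The second was also lost without a gene filter (adjusted p = 0.0151).

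GPX1 (chr3:49394607-49396038, - strand), the intracellular glutathione peroxidase, changed less. It ranged from 137 to 184 cpm in D1, 117 to 128 in D1+ TGF-β, 188 to 204 in D20 and 145 to 160.4 in D20+ TGF-β. The treated and untreated flasks of the same day did not overlap. The log2 fold changes were -0.45 ± 0.10 at D1 (adjusted p = 0.00459) and -0.36 ± 0.10 at D20 (adjusted p = 0.00887). The D1 call was lost in 6 of 23 alternatives, among them each of the fits without D1 replicate 1 or 3 or any D1+ TGF-β flask (adjusted p 0.0141 to 0.0223). The D20 call was lost in 13 of 23, among them every fit without a D20, D20+ TGF-β or D1+ TGF-β flask (adjusted p 0.0132 to 0.0395). GPX1, SOD1 and SOD2 have processed pseudogenes whose reads may be shared with them. On the same strand, GPX1 also overlaps another annotated protein-coding gene, and TXNRD1 overlaps EID3 and the processed pseudogene RPL18AP3.

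NQO1 (chr16:69740899-69760571, - strand), a quinone reductase, fell with TGF-β at both times. Its flasks held 532, 556 and 571 cpm in D1, 297, 274 and 310.3 in D1+ TGF-β, 514, 596 and 589 in D20 and 218, 209 and 148 in D20+ TGF-β. Treated and untreated flasks did not overlap, and the untreated flasks of both days shared 1 range. NQO1 had a log2 fold change of -0.91 ± 0.12 at D1 (adjusted p = 1.21e-04) and -1.56 ± 0.12 at D20 (adjusted p = 5.17e-07). Between the days among the treated flasks it was -0.61 ± 0.12 (adjusted p = 9.56e-04). The difference of the responses, -0.65 ± 0.17, did not pass the threshold (adjusted p = 0.0152), but did without D20+ TGF-β replicate 1 (-0.75, adjusted p = 0.00979) or replicate 3 (-0.49, adjusted p = 0.00739). It also passed with all libraries in DESeq2 (-0.64, adjusted p = 0.00237) and in edgeR without a gene filter (-0.61, adjusted p = 0.00706).

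TXNRD1 (chr12:104609557-104744085, + strand), the cytosolic thioredoxin reductase, was lower with TGF-β at both times. Its flasks held 1067, 1192 and 1071 cpm in D1, 660.3, 649 and 718 in D1+ TGF-β, 1024, 1084 and 1118 in D20 and 586, 615 and 575 in D20+ TGF-β. With TGF-β TXNRD1 changed by -0.72 ± 0.07 at D1 (adjusted p = 1.77e-05) and -0.86 ± 0.07 at D20 (adjusted p = 1.40e-06), and the 2 responses differed by -0.15 ± 0.10 (adjusted p = 0.348). Without TGF-β it differed by -0.05 ± 0.07 between the days (adjusted p = 0.625).

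HMOX1 (chr22:35776354-35790207, + strand), heme oxygenase 1, passed the threshold in none of the 5 comparisons. It ranged from 43.7 to 71.1 cpm in D1, 37.5 to 43.7 in D1+ TGF-β, 31.5 to 49.6 in D20 and 34.3 to 45.2 in D20+ TGF-β, and the flasks overlapped in every comparison. The log2 fold change was -0.45 ± 0.18 at D1 (adjusted p = 0.0849) and -0.04 ± 0.18 at D20 (adjusted p = 0.871). Of the 3 textbook NRF2 targets it was the one with no difference detectable at this depth and spread.

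**Figure D4:**
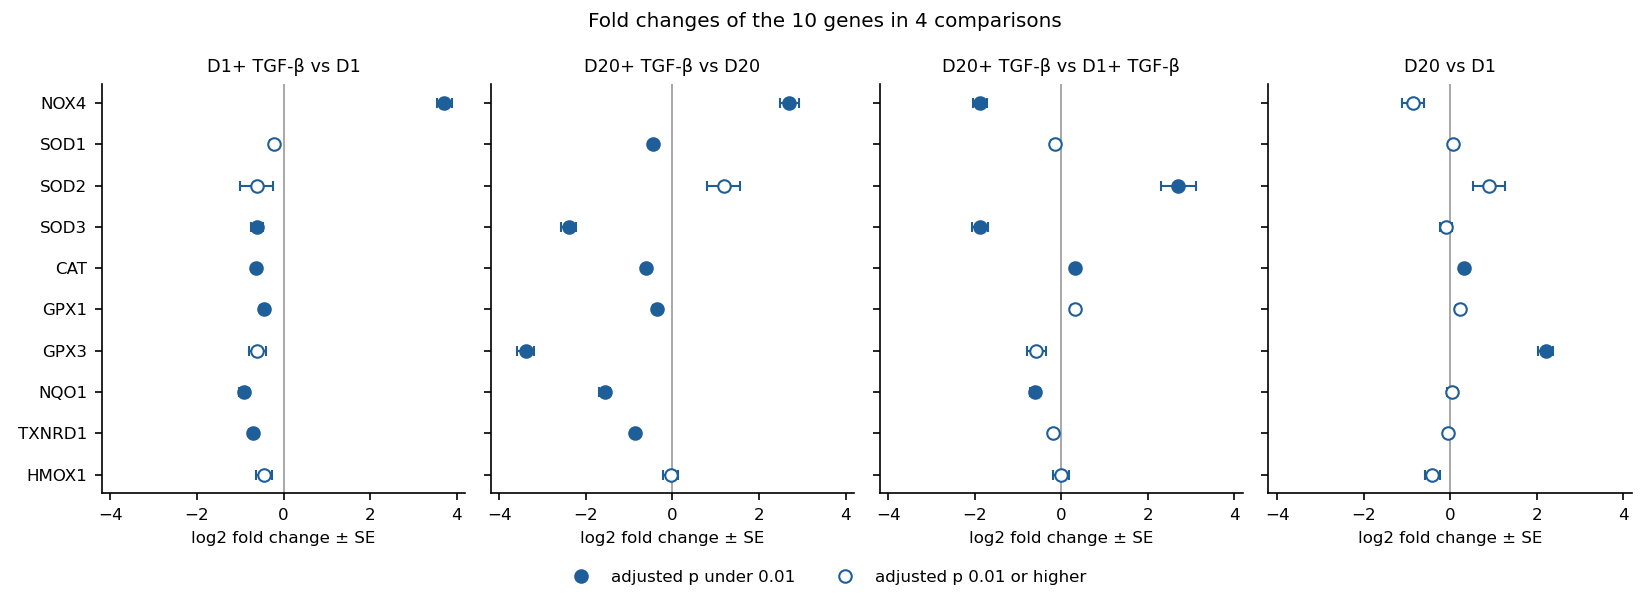
Log2 fold change of each gene in the 4 comparisons (x axis; points, estimates from edgeR; bars, SE; filled points, adjusted p under 0.01). In both TGF-β comparisons the filled points other than NOX4 lie below 0.

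In D1+ TGF-β vs D1, 6 of the 10 genes were called, NOX4 as higher and SOD3, CAT, GPX1, NQO1 and TXNRD1 as lower. In D20+ TGF-β vs D20, 8 were called, NOX4 as higher and SOD1, SOD3, CAT, GPX1, GPX3, NQO1 and TXNRD1 as lower. Over the 9490 genes tested, 13.4% were called at D1 (6.89% higher and 6.50% lower) and 27.5% at D20 (12.8% higher and 14.7% lower), and over the wider 13568 genes 11.1% and 24.7%. With day 20 set against day 1 among the treated flasks, SOD2 and CAT were called as higher and SOD3, NQO1 and NOX4 as lower, where 34.8% of the genes tested were called (17.2% higher, 17.7% lower) and 30.7% of the wider set. In D20 vs D1, CAT and GPX3 were called, both higher, where 36.4% of the genes tested (18.9% higher, 17.6% lower) and 31.9% of the wider set were. For the difference of the TGF-β responses, SOD3 and GPX3 were called, against 10.4% of the genes tested and 8.22% of the wider set. The 10 genes were chosen with these results known, and nothing is read from their counts against these shares. The comparisons share conditions, each condition entering at least 2 of them.

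Per kilobase of the canonical transcript, the level of TXNRD1 was the highest of the 10 genes in D1 (288 cpm per kb), D1+ TGF-β (175) and D20 (279). In D20+ TGF-β GPX1 was highest (169), ahead of TXNRD1 (153) and SOD1 (151), which differed by less than the SD of either (3.53% and 3.22% of the mean). NQO1 was the second highest in D1 (219) and D20 (225) and the fourth highest in both treated conditions (116 and 76.0). NOX4 was the lowest in D1 (0.395) and D20 (0.225), and SOD3 was the lowest in D1+ TGF-β (4.91) and D20+ TGF-β (1.39), where it differed from NOX4 (1.47) by less than the SD of either. Other neighbours that differed by less than the larger of their SDs were, in D1, SOD1 (196) and GPX1 (185) and also HMOX1 (35.8) and CAT (34.7). In D1+ TGF-β they were TXNRD1 (175) and SOD1 (167.5). In D20 they were NQO1 (225) and GPX1 (217), GPX3 (43.6) and CAT (43.0), and SOD2 (27.05) and HMOX1 (26.8). In D20+ TGF-β they were NQO1 (76.0) and SOD2 (61.6), SOD2 and CAT (28.04), and CAT and HMOX1 (26.1). SOD2 was the fifth highest in D20+ TGF-β (61.6) and lower in rank in the other 3 conditions, though its place depends on its long annotated transcript. With the length of all exons merged in place of the canonical transcript, NQO1 came first in D1 (186) and D20 (191) and TXNRD1 second.

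The other genes of these pathways were taken from 8 lists of 152 genes, written by function with earlier results of these data known. Of these, 147 had a count and 114 passed the filter. In D1+ TGF-β vs D1, 21 were called (6 higher, 15 lower), 18.4% against 13.4% of all genes, with a median log2 fold change of -0.16 against -0.02. In D20+ TGF-β vs D20, 39 were called (10 higher, 29 lower), 34.2% against 27.5%, with a median of -0.15 against 0.01. With day 20 set against day 1, 38 were called among the treated flasks (21 higher, 17 lower), and 36 among the untreated (21 higher, 15 lower), 33.3% and 31.6% against 34.8% and 36.4%. For the difference of the TGF-β responses 13 were called (4 higher, 9 lower), 11.4% against 10.4% of all genes. These shares describe the lists and were not tested.

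**Figure D5:**
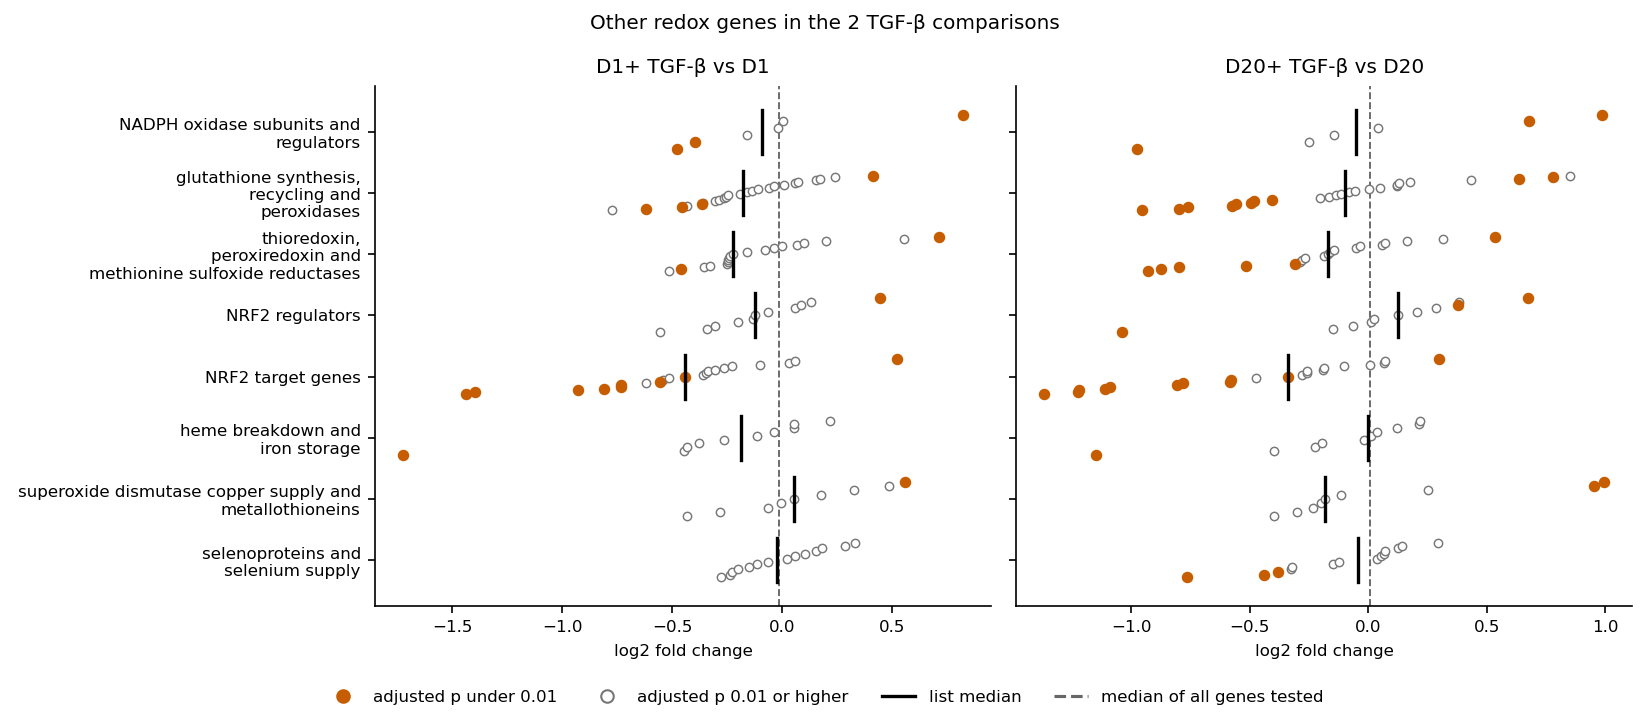
Log2 fold changes of the 114 tested genes of 8 lists in the 2 TGF-β comparisons (x axis; each point is a gene; filled points, adjusted p under 0.01; thick bars, list medians; dashed line, median of all genes tested). The list of NRF2 target genes has the lowest median in both comparisons, -0.44 and -0.34.

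Of the other NRF2 target genes, 21 of 26 were tested. At D1 9 of the 21 were called (1 higher, 8 lower, median -0.44), and at D20 11 (1 higher, 10 lower, median -0.34). These were 42.9% and 52.4% of those tested, against 13.4% and 27.5% of all genes. AKR1C1 and AKR1C2, aldo-keto reductases with near-identical sequences whose reads may be shared, changed by -1.40 ± 0.30 and -1.44 ± 0.34 at D1 (adjusted p = 0.00473 and 0.00772). AKR1C2 changed by -1.37 ± 0.26 at D20 (44.9 ± 8.71 to 17.3 ± 7.49 cpm, adjusted p = 9.45e-04). The drug and glutathione conjugate transporter ABCC1 fell by 0.93 ± 0.13 on the log2 scale at D1 (284 ± 47.97 to 149 ± 16.3 cpm, adjusted p = 1.54e-04). ABCC3, another transporter of this family, and OSGIN1, a growth inhibitor induced by oxidative stress, each changed by -1.22 at D20 (adjusted p = 7.44e-05 and 1.05e-04). UGDH, which makes UDP-glucuronic acid and was named after its values were seen, was the one gene called higher, by 0.52 ± 0.07 at D1 and 0.30 ± 0.07 at D20 (adjusted p = 1.82e-04 and 0.00462). Over time 7 were called in each comparison, with 4 higher and 3 lower with TGF-β and 5 higher and 2 lower without. Each was 33.3% of those tested, against 34.8% (with TGF-β) and 36.4% (without) of all genes. AKR1C1 and AKR1C2 were among those higher at day 20 (1.076 ± 0.27 and 1.92 ± 0.27 in D20 vs D1).

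NRF2 itself (NFE2L2) moved with time and TGF-β. Its flasks held 121, 142 and 106 cpm in D1, 94.7, 97.6 and 99.1 in D1+ TGF-β, 347, 399 and 405 in D20 and 204, 215 and 141 in D20+ TGF-β. It rose by 1.64 ± 0.14 on the log2 scale from D1 to D20 (adjusted p = 8.51e-07) and fell by 1.04 ± 0.14 in D20+ TGF-β vs D20 (adjusted p = 6.03e-05). Between D1 and D20 NQO1 and TXNRD1 differed little, and HMOX1 was not called. Of the 21 other NRF2 target genes tested, 5 were called higher in D20, AKR1C1 and AKR1C2 among them, and 2 lower. The part of NFE2L2 in the levels of these genes was not tested. Of the 11 NRF2 regulators, all tested, 1 was called at D1, BACH1, a repressor that competes for the same element, at 0.44 ± 0.07 (adjusted p = 7.59e-04). At D20 3 were called, NFE2L2 and the small MAF partners MAFF (0.68 ± 0.12, adjusted p = 4.17e-04) and MAFG (0.38 ± 0.07, adjusted p = 0.0011). KEAP1, named after its values were seen, was called in neither (-0.31 and -0.06, adjusted p = 0.0312 and 0.621). Over time 3 were called with TGF-β, all higher, and 4 without (1 higher, 3 lower). The shares of the regulators called were 9.09% at D1 and 27.3% at D20, against 13.4% and 27.5% of all genes. Over time they were 27.3% with TGF-β and 36.4% without, against 34.8% and 36.4% of all genes.

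Of the genes of glutathione synthesis, recycling and peroxidases, 24 of 33 were tested. At D1 4 were called (1 higher, 3 lower, median -0.18) and at D20 10 (2 higher, 8 lower, median -0.10). These were 16.7% and 41.7% of those tested, against 13.4% and 27.5% of all genes. Glutathione reductase (GSR) fell by 0.62 ± 0.08 on the log2 scale at D1 (adjusted p = 9.68e-05). GCLM, the modifier subunit of glutamate cysteine ligase, fell by 0.96 ± 0.13 at D20 (70.1 ± 6.80 to 36.2 ± 1.90 cpm, adjusted p = 8.09e-05). The microsomal transferase MGST1 fell at both, by 0.46 ± 0.11 and 0.80 ± 0.11 (adjusted p = 0.008 and 7.75e-05). GPX8, an endoplasmic reticulum peroxidase, rose by 0.41 ± 0.07 at D1 (adjusted p = 0.00112), and SLC3A2, the partner of the cystine transporter, by 0.78 ± 0.09 at D20 (adjusted p = 2.44e-05). Over time 9 were called in each comparison (37.5%, against 34.8% of all genes with TGF-β and 36.4% without). GCLC, the catalytic subunit of the ligase, was 0.83 ± 0.08 higher in D20 than in D1 (adjusted p = 2.83e-06).

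In the thioredoxin, peroxiredoxin and methionine sulfoxide reductase list, 19 of 20 genes were tested. At D1 2 were called (1 higher, 1 lower, median -0.23) and at D20 6 (1 higher, 5 lower, median -0.17). These were 10.5% and 31.6% of those tested, against 13.4% and 27.5% of all genes. Thioredoxin (TXN), the substrate of TXNRD1, fell by 0.46 ± 0.08 on the log2 scale at D1 (411 ± 49.4 to 299 ± 2.21 cpm, adjusted p = 0.00105), and MSRB3 rose by 0.71 ± 0.09 (adjusted p = 5.92e-05). At D20 the peroxiredoxins PRDX1 and PRDX6 fell by 0.93 ± 0.07 and 0.87 ± 0.10 (adjusted p = 3.64e-07 and 1.13e-05), PRDX1 from 699.5 ± 10.7 to 368 ± 21.6 cpm. SRXN1, which repairs peroxiredoxins, was lower at day 20 than at day 1 without TGF-β (-0.83 ± 0.08, adjusted p = 1.57e-06) and with it (-0.77 ± 0.08, adjusted p = 7.73e-06). In all 9 of the list genes were called over time with TGF-β (4 higher, 5 lower) and 6 without (5 higher, 1 lower). These were 47.4% and 31.6% of those tested, against 34.8% and 36.4% of all genes.

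Of the NADPH oxidase subunits and regulators, 6 of 19 were tested, with 3 called at D1 (1 higher, 2 lower, median -0.09), 3 at D20 (2 higher, 1 lower, median -0.05) and 2 in each comparison over time. At D1 and at D20 these were 50% of those tested, against 13.4% and 27.5% of all genes. Each count over time was 33.3%, against 34.8% of all genes with TGF-β and 36.4% without. The scaffold proteins of invadopodia SH3PXD2A and SH3PXD2B were those called higher, SH3PXD2A by 0.82 ± 0.11 at D1 and 0.68 ± 0.11 at D20 (adjusted p = 1.36e-04 and 2.63e-04) and SH3PXD2B by 0.98 ± 0.13 at D20 (adjusted p = 4.36e-05). In the heme and iron list, 10 of 10 tested, SLC40A1, the iron exporter ferroportin, was the one gene called at D1 (-1.72 ± 0.32, adjusted p = 0.00171) and at D20 (-1.15 ± 0.24, adjusted p = 0.00176), with list medians of -0.19 and 0.00, and it rose by 2.20 ± 0.25 from D1 to D20 (15.1 ± 4.71 to 70.2 ± 14.2 cpm, adjusted p = 1.09e-05). Of the copper supply and metallothionein list, 9 of 16 were tested, with 1 called at D1 (MT1E, 0.56 ± 0.12, adjusted p = 0.0054, list median 0.05) and 2 at D20, both higher (MT2A, 0.99 ± 0.12, adjusted p = 2.79e-05, and MT1E, 0.95 ± 0.12, adjusted p = 4.74e-05, list median -0.18). Metallothioneins bind metals and are close paralogs whose reads may be shared. Of the selenoprotein list, 14 of 17 were tested, with 0 called at D1 (median -0.02) and 3 at D20, all lower (median -0.04), of which SEPW1 changed most (-0.76 ± 0.11, adjusted p = 1.07e-04). The shares called were 11.1% at D1 and 22.2% at D20 in the copper and metallothionein list. At D20 the share was 21.4% in the selenoprotein list. In these lists and the heme and iron list, the shares at D1 and D20 were below the 13.4% and 27.5% of all genes.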

How the data were processed

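RNA-seq was made from WI-38 cells in 4 conditions of 3 flasks. The deposited counts per gene were made by the authors from reads trimmed with Trimmomatic and mapped to hg19 with Rsubread; the counting program, its annotation and its use of strand are not given in the sources used here. The deposited log2 values, normalised expression made by the authors for 9412 genes, served only as an alternative. The 4 lanes of a library were summed (8674488 to 18286197 counts). Genes with at least 10 cpm in 6 of 12 libraries (9490) were tested with edgeR 4.0.16 (R 4.3.3) quasi-likelihood F-tests after TMM scaling, with a mean per condition and Benjamini-Hochberg adjustment over all genes tested, and called at an adjusted p under 0.01. NOX4 and SOD3 were tested in a fit of 13568 genes with at least 1 cpm in 3 libraries. SE was the fold change divided by the root of F, and log2 cpm used a prior count of 2. Scripts were tested on simulated data. The 10 genes and all lists were chosen with earlier results of these data known. From each list the text draws on up to 3 genes per TGF-β comparison and up to 2 per comparison over time, those with the largest change among genes called and without overlap of flasks, and for GPX3 and NOX4 on the 5 genes nearest in pattern; any other gene is said to be named after its values were seen. DESeq2 1.42.0, limma 3.58.1, other scalings, filters, lanes as samples, a replicate block and each library left out were the alternatives. Depth covers counting error only.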

Additional observations from a re-analysis of the deposited data

Results flagged for a closer look

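The response to TGF-β at D20 differed from that at D1 for 15 genes of the set and the lists, by the test of the difference itself in edgeR with adjusted p under 0.01. They are 2 of the 10 genes and 13 of the 114 list genes tested (11.4%), where 10.4% of all genes tested were called, so that the share in the lists lay near that of all genes. Each value is the log2 fold change at D20 minus that at D1. Of the 10 genes, GPX3 differed by -2.79 and SOD3 by -1.78. CYBA, the partner of NOX4, differed by -0.58 (adjusted p = 0.00787), a call lost in 12 alternatives. In the peroxiredoxins PRDX6 differed by -0.97 (adjusted p = 3.23e-04) and PRDX1 by -0.68 (adjusted p = 4.51e-04), and the methionine sulfoxide reductase MSRB3 by -0.87 (adjusted p = 3.09e-04). GCLM differed by -0.92 (adjusted p = 0.00377) and the glutathione transferase GSTM3 by -0.57 (adjusted p = 0.00186). The metallothionein MT1L differed by -0.72 (adjusted p = 0.00606), SELENOT by -0.65 (adjusted p = 0.00277) and the transferrin receptor TFRC by -0.41 (adjusted p = 0.00839). The differences were above 0 for SH3PXD2B at 0.98 (adjusted p = 0.00201), MAFF at 0.88 (adjusted p = 0.00222), SLC3A2 at 0.61 (adjusted p = 0.00563) and RAC2 at 0.52 (adjusted p = 0.00692). GSTM3 and TFRC were named after their values were seen.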

How the results depend on the processing

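No called fold change of the 10 genes or of the named list genes changed sign in any alternative run. The sign of 6 uncalled ones, all close to 0, changed in 27 of the 1130 combinations of a fold change and an alternative, and in none of these did the value pass the threshold. HMOX1 in D20+ TGF-β vs D20 became 0.0048 without a composition factor and ran from -0.19 to 0.098 with 1 library left out. Between the treated conditions HMOX1 became 0.0026 in limma-voom, 0.023 with lanes as samples, 0.036 without a composition factor, 0.00025 with the 6 libraries alone and 0.00082 with the replicate block, and ran from -0.085 to 0.11 with 1 library left out. In D20 vs D1, SOD1 and NQO1 became -0.0071 and -0.037 without a composition factor and -0.014 and -0.042 without a gene filter, and NQO1 became -0.0053 with filterByExpr. With 1 library left out SOD1 ran from -0.030 to 0.15, SOD3 from -0.19 to 0.018 and NQO1 from -0.0034 to 0.10, and the difference of responses of CAT from -0.054 to 0.055. Of the 10 genes, limma on the deposited log2 values, which hold 8 of them, called 5 at D20, 3 over time with TGF-β and 1 for the difference of responses. Over all 9412 genes of those values it called 2564, 3288 and 977. With the 48 lanes taken as samples, which counts each flask 4 times, 9 were called over time with TGF-β, 5 over time without it and 8 for the difference, and of the lists 71 at D1, 77 at D20, 69 and 66 over time with and without TGF-β and 50 for the difference. Over all 9490 genes tested, lanes as samples called 3934 at D1 and 5205 at D20. Over time they called 5762 with and 5934 without TGF-β, and 3712 for the difference. With lanes summed the counts were 1271, 2609, 3307, 3457 and 985 in the same order. Without a composition factor 1 of the 10 genes was called over time without TGF-β and 33 list genes at D1, and the median of all genes became 0.13 for the difference of responses. Of all genes that setting called 3501 over time without TGF-β and 1438 at D1. Without a gene filter the counts of the 10 genes were 1 over time without TGF-β and 4 for the difference, and DESeq2 called 33 list genes at D1. Of all 20434 genes without a filter, 4501 and 1313 were called, and DESeq2 called 1593 of 9490 at D1. With 1 library left out, the 10 genes gave 1 to 3 calls over time without TGF-β (1 without D20 replicate 2) and 2 to 4 for the difference (4 without D20+ TGF-β replicate 3). Of all genes, 2619 were called over time without TGF-β when D20 replicate 2 was left out, in place of 3457. Without D20+ TGF-β replicate 3, 1106 were called for the difference, in place of 985. The lists gave 11 to 38 at D1 (38 without D1 replicate 2, 12 and 11 without D1+ TGF-β replicate 1 or 2), 23 to 50 over time with TGF-β (23 without D1+ TGF-β replicate 2) and 7 to 24 for the difference (24 without D1 replicate 2, 7 without D1+ TGF-β replicate 1). The counts over all genes moved the same way in these fits. At D1 they were 1875, 735 and 619 in place of 1271. Over time with TGF-β the count was 2275 in place of 3307. For the difference they were 1731 and 632 in place of 985. The cause of these moves was not tested. Replicate numbers did not pair the flasks (correlations of deviations -0.22 to 0.32 over 18 pairs). With the replicate block, 8 list genes were called for the difference in place of 13, and 831 of all genes in place of 985. Low counts limit NOX4 without TGF-β and SOD3 at D20+ TGF-β, and 3 flasks against 3 cannot reach an exact permutation p below 0.1.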
